A study of Homo sapiens with 13 samples.

Results

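The genes described are enzymes that oxidise, hydrolyse or conjugate drugs, steroids and bile acids, together with the uptake transporters of the hepatocyte. A list of 46 symbols was matched to the array table, and a gene was taken where the platform annotation gave its symbol alone to a row. This held for 40 of the 46 genes, among 18377 genes tested in all. CYP2D6, CYP3A7 and UGT2B11 lay only on rows shared with other genes, and CYP2C18, CYP2C19 and SLC22A3 are not analysed here. RNA was taken from 13 flasks of human liver cancer cells after 72 h under 4 conditions, with 1 array per flask. HepG2S1 is a line that was made from HepG2, an established line from a human liver tumour, by raising the dose of the multikinase inhibitor sorafenib over months. HepG2S1 cells were withdrawn from sorafenib at 20% O2 in 3 flasks, kept in 6 µM sorafenib at 2% O2 in 3 flasks, and kept in 6 µM sorafenib at 20% O2 in 4 flasks. Untreated HepG2 cells at 20% O2 filled 3 flasks. The culture medium of all 4 groups held serum, insulin and dexamethasone, a glucocorticoid that is itself known to induce some P450 genes. HepG2S1 is 1 derived line, and whether it is a single clone is not stated in the sources used here. Line and long-term drug history changed together, so that they cannot be told apart in a comparison of HepG2S1 with HepG2. Where HepG2S1 was kept in sorafenib, the drug present during the 72 h differed from HepG2 as well.

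Hepatocytes clear foreign compounds in steps. Transporters of the SLCO and SLC families carry them in from the blood, cytochrome P450 enzymes, flavin monooxygenases, carboxylesterases and epoxide hydrolases expose reactive groups (phase I), and UDP-glucuronosyltransferases, sulfotransferases and methyltransferases attach a polar group (phase II). The same families make bile acids from cholesterol and switch vitamin D and retinoids on and off. HepG2 cells are known to keep many features of hepatocytes while expressing several of the major drug-metabolising P450s weakly.

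All values are log2 signals, on which 1 unit is a 2-fold difference, and each gene is compared only with itself. The array table holds no detection calls. A group mean under 5.76, the median over the arrays of the lower quartile of all rows, is called near the floor here. The label of a liver cell line was checked against 13 hepatocyte markers. Of these, 6 lay near the floor in every HepG2S1 group, including ALB and AFP, and 1 did in HepG2. AFP averaged 4.79 in HepG2S1 with sorafenib at 20% O2 and 13.45 in HepG2. ALB averaged 5.20 in HepG2S1 with sorafenib at 20% O2 and 12.79 in HepG2. The log2 of the summed linear level of the 13 markers was 13.06 to 13.11 in withdrawn HepG2S1, 12.90 to 13.00 at 2% O2, 12.99 to 13.04 in HepG2S1 with sorafenib at 20% O2, and 16.06 to 16.11 in HepG2. Between HepG2S1 with sorafenib at 20% O2 and HepG2, 12 of the 13 markers fell, and CPS1, a urea cycle enzyme, rose (3.46 ± 0.05, SE). Array medians lay between 7.30 and 7.42.

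Most of these genes were lower in HepG2S1 than in HepG2, and some fell to the array floor. In HepG2S1 with sorafenib at 20% O2 against HepG2, 29 of the 40 genes fell and 5 rose, and 6 were not called, in limma at a Benjamini-Hochberg adjusted p under 0.05. Of all 18377 genes tested, 57.3% were called in this comparison, 27.2% as lower and 30.1% as higher. The median log2 fold change was −0.78 over the 40 genes and 0.01 over all genes. The arrays of the 2 groups did not overlap for 33 of the 40 genes, against 56.2% of all genes. A fall of at least 2-fold was called for 17 of the 40 genes, against 7.31% of all genes, and a rise of at least 2-fold for 3, against 8.45%. The falls of UGT2B10, CYP24A1, SULT1C2, SULT2A1, CES1, CYP27A1, UGT2B4 and FMO5 were the 8 of at least 16-fold. Of the 17 genes with a 2-fold fall, 11 had a group near the floor, where RMA draws low signals together and the size of a fold rests on the background. Markers of hepatocytes moved with these genes, as given above, and their part in the result was not tested. On bulk RNA, a change in the share of cells that express a gene and a change of its level in each cell cannot be told apart.

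**Figure D1:**
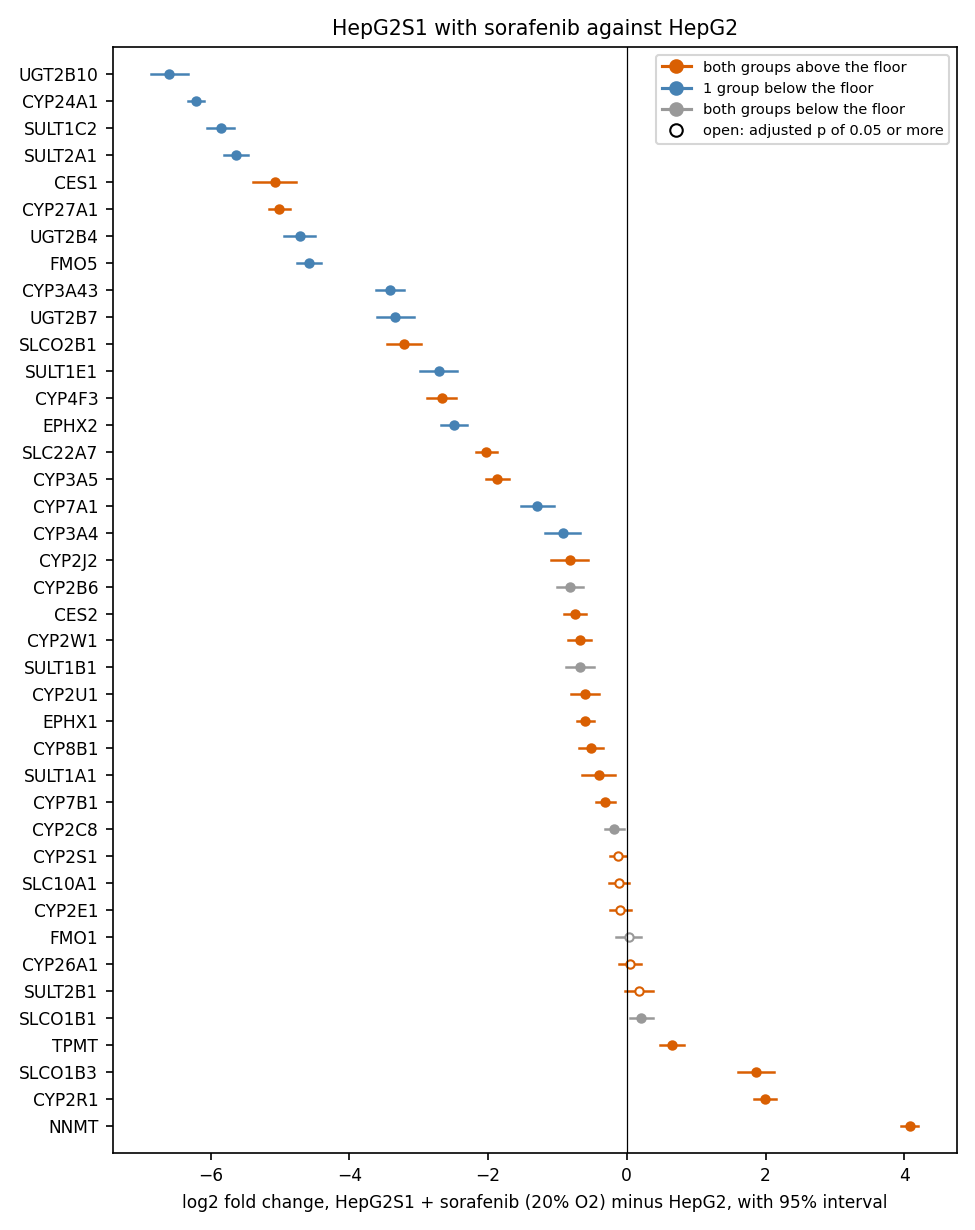
The horizontal axis gives the log2 fold change of each of the 40 genes for HepG2S1 with sorafenib at 20% O2 minus HepG2, with its 95% confidence interval. The colour says whether group means lay below the floor, and open points were not called. Points run from −6.59 for UGT2B10 to 4.08 for NNMT, with 32 of them left of 0.

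Among the 11 P450s of xenobiotics and fatty acids, 9 fell, none rose and 2 were not called, with a median log2 fold change of −0.82. CYP3A43, a minor member of the CYP3A family, had log2 signals of 5.00, 4.93, 4.94 and 4.96 in HepG2S1 with sorafenib at 20% O2, against 8.64, 8.40 and 8.09 in HepG2. It lay near the floor in every HepG2S1 array and well above it in HepG2, and it fell by 3.42 ± 0.09 on the log2 scale (SE, adjusted p = 5.14e-14). CYP3A5, a drug-oxidising enzyme whose level varies widely between people, had 6.81, 6.89, 6.91 and 6.84 in HepG2S1 with sorafenib at 20% O2, against 8.94, 8.66 and 8.59 in HepG2. CYP3A5 stayed above the floor in HepG2S1 and fell by 1.87 ± 0.08 (SE, adjusted p = 8.25e-12), with no overlap between the groups. CYP3A4, the major drug-oxidising P450 of adult liver, was already close to the floor in HepG2. Its signals were 5.02, 5.01, 5.05 and 4.96 in HepG2S1 with sorafenib at 20% O2, against 5.65, 6.07 and 6.09 in HepG2, and it fell by 0.93 ± 0.12 (SE, adjusted p = 4.17e-06). CYP4F3, which hydroxylates leukotriene B4 and fatty acids, had 6.10, 6.24, 6.12 and 6.01 in HepG2S1 with sorafenib at 20% O2, against 8.67, 8.64 and 9.06 in HepG2. It fell by 2.67 ± 0.10 (SE, adjusted p = 1.61e-12) and all 4 HepG2S1 arrays lay below all 3 HepG2 arrays. Smaller falls were called for CYP2B6, CYP2J2, CYP2U1, CYP2W1 and CYP2C8, between −0.82 and −0.18. The fall of CYP2C8, a drug-metabolising enzyme near the floor in all 4 groups, was lost without HepG2S1 replicate 1 or 4 or HepG2 replicate 2 (adjusted p = 0.0593, 0.0899 and 0.0748) and in a model of the 2 groups alone (0.0523, with 0.00478 to 0.0899 over all alternatives). CYP2E1, which oxidises ethanol, averaged 6.93 in HepG2S1 with sorafenib at 20% O2 and 7.03 in HepG2 and was not called (adjusted p = 0.28). CYP2S1 was not called either (−0.13 ± 0.05, SE, adjusted p = 0.0613).

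Vitamin D and retinoid P450s went different ways. CYP24A1, the hydroxylase that inactivates vitamin D, had log2 signals of 4.53, 4.67, 4.54 and 4.58 in HepG2S1 with sorafenib at 20% O2, against 10.85, 10.76 and 10.77 in HepG2. All HepG2S1 arrays lay near the floor, and it fell by 6.21 ± 0.05 on the log2 scale, or 74.3-fold (SE, adjusted p = 1.4e-19). CYP2R1, a vitamin D 25-hydroxylase that activates the vitamin, had 8.84, 8.64, 8.82 and 8.70 in HepG2S1 with sorafenib at 20% O2, against 6.78, 6.63 and 6.85 in HepG2. It rose by 2.00 ± 0.07 (SE, adjusted p = 1.84e-12) with no overlap between the groups. The vitamin D receptor gene VDR, whose activation is known to induce CYP24A1, averaged 8.05 in HepG2S1 with sorafenib at 20% O2 and 6.40 in HepG2 and rose (1.65 ± 0.07, SE, adjusted p = 1.85e-11). CYP26A1, which degrades retinoic acid, averaged 6.20 in HepG2S1 with sorafenib at 20% O2 and 6.16 in HepG2 and was not called (adjusted p = 0.673).

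All 4 P450s of bile acid synthesis fell, and their median change was −0.90 on the log2 scale. CYP27A1, the mitochondrial sterol 27-hydroxylase of the alternative pathway, had 5.97, 6.14, 6.12 and 5.96 in HepG2S1 with sorafenib at 20% O2, against 11.04, 10.94 and 11.18 in HepG2. It fell by 5.01 ± 0.07 on the log2 scale, or 32.2-fold (SE, adjusted p = 2.43e-17), and the groups lay far apart. CYP7A1, the rate-limiting enzyme of the classical pathway, had 5.07, 5.12, 5.00 and 5.23 in HepG2S1 with sorafenib at 20% O2, against 6.15, 6.76 and 6.26 in HepG2. Low in HepG2, it lay near the floor in HepG2S1, and it fell by 1.29 ± 0.11 (SE, adjusted p = 6.25e-08). CYP8B1, the sterol 12-alpha-hydroxylase, fell less (−0.51 ± 0.08, SE, adjusted p = 4.8e-05), as did CYP7B1, the oxysterol 7-alpha-hydroxylase (−0.31 ± 0.06, SE, adjusted p = 0.0005).

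Of the 6 hydrolases and flavin monooxygenases, 5 fell and FMO1, near the floor in all groups, was not called. CES1, the carboxylesterase of liver that cleaves ester drugs, had log2 signals of 7.46, 8.00, 7.84 and 8.14 in HepG2S1 with sorafenib at 20% O2, against 13.02, 12.90 and 12.89 in HepG2. It was above the floor in every group and still fell by 5.08 ± 0.14, or 33.8-fold (SE, adjusted p = 6.95e-14). CES2, the carboxylesterase best known from the intestine, had 9.97, 10.06, 9.88 and 9.92 in HepG2S1 with sorafenib at 20% O2, against 10.69, 10.56 and 10.86 in HepG2, and it fell by 0.75 ± 0.07 (SE, adjusted p = 1.88e-07). FMO5, a flavin monooxygenase that acts on ketones, had 5.38, 5.47, 5.32 and 5.40 in HepG2S1 with sorafenib at 20% O2, against 10.21, 9.98 and 9.75 in HepG2. It lay near the floor in HepG2S1 and fell by 4.59 ± 0.08 (SE, adjusted p = 2.34e-16). EPHX2, the soluble epoxide hydrolase that breaks down fatty acid epoxides, averaged 5.29 ± 0.13 in HepG2S1 with sorafenib at 20% O2 (SD, n = 4) and 7.78 ± 0.13 in HepG2 (SD, n = 3). EPHX2 fell by 2.49 ± 0.09 (SE), while EPHX1, the microsomal hydrolase of xenobiotic epoxides, fell by 0.60 ± 0.06 (SE). Both calls had limma adjusted p-values far under the threshold, at 8.76e-13 for EPHX2 and 1.76e-07 for EPHX1.

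Most of the conjugating enzymes fell, while both methyltransferases rose. Of 11 genes, 8 fell, 2 rose and SULT2B1, a sulfotransferase of cholesterol, was not called, with a median log2 fold change of −2.71. UGT2B10, a glucuronosyltransferase that acts on amines, had 4.23, 3.94, 3.86 and 4.23 in HepG2S1 with sorafenib at 20% O2, against 10.78, 10.63 and 10.57 in HepG2. It lay near the floor in HepG2S1 and had a clear signal in HepG2, and it fell by 6.59 ± 0.12, or 96.6-fold (SE, adjusted p = 4.24e-16). UGT2B4, which conjugates bile acids, had 4.32, 4.05, 4.18 and 4.07 in HepG2S1 with sorafenib at 20% O2, against 8.95, 9.04 and 8.61 in HepG2, and it fell by 4.71 ± 0.10 (SE, adjusted p = 3.79e-15). UGT2B7, which conjugates steroids and opioids, had 4.10, 3.87, 4.16 and 4.27 in HepG2S1 with sorafenib at 20% O2, against 7.28, 7.59 and 7.44 in HepG2. It fell by 3.34 ± 0.12 (SE, adjusted p = 1.93e-12), and the 3 genes were near the floor in all HepG2S1 groups. The UGT2B genes are related neighbours on chromosome 4, so that their probes can share signal, and how far they did was not tested.

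Of the 6 sulfotransferases, 5 fell over a wide range. SULT2A1, which sulfates dehydroepiandrosterone and bile acids, had 5.48, 5.46, 5.31 and 5.46 in HepG2S1 with sorafenib at 20% O2, against 11.12, 10.99 and 11.10 in HepG2, and it fell by 5.64 ± 0.08 (SE, adjusted p = 2.23e-17). SULT1C2, a phenol sulfotransferase, had 5.11, 5.56, 5.19 and 5.26 in HepG2S1 with sorafenib at 20% O2, against 11.16, 11.19 and 11.05 in HepG2, and it fell by 5.85 ± 0.09 (SE, adjusted p = 4.41e-17). Both lay near the floor in every HepG2S1 group and far above it in HepG2. SULT1E1, which inactivates oestrogens, had 5.80, 5.57, 5.68 and 5.76 in HepG2S1 with sorafenib at 20% O2, against 8.74, 8.19 and 8.31 in HepG2. Its mean in that HepG2S1 group was near the floor, and SULT1E1 fell by 2.71 ± 0.12 (SE, adjusted p = 2.07e-11). SULT1B1, which sulfates thyroid hormones, was near the floor in all groups and fell by 0.68 (adjusted p = 1.15e-05). SULT1A1, the main phenol sulfotransferase of liver, averaged 8.37 in HepG2S1 with sorafenib at 20% O2 and 8.78 in HepG2. It fell by 0.41 (adjusted p = 0.00456), although the arrays of the 2 groups overlapped, and it has near-identical copies in the genome.

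The 2 methyltransferases rose. NNMT, nicotinamide N-methyltransferase, had log2 signals of 11.68, 11.75, 11.62 and 11.69 in HepG2S1 with sorafenib at 20% O2, against 7.54, 7.62 and 7.67 in HepG2. Every HepG2S1 array was far above every HepG2 array, and NNMT rose by 4.08 ± 0.06, or 16.9-fold (SE, adjusted p = 1.99e-17). TPMT, which inactivates thiopurine drugs, had 9.86, 9.44, 9.78 and 9.78 in HepG2S1 with sorafenib at 20% O2, against 9.08, 9.09 and 9.04 in HepG2. The groups did not overlap, and TPMT rose by 0.65 ± 0.08 (SE, adjusted p = 3.56e-06).

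**Figure D2:**
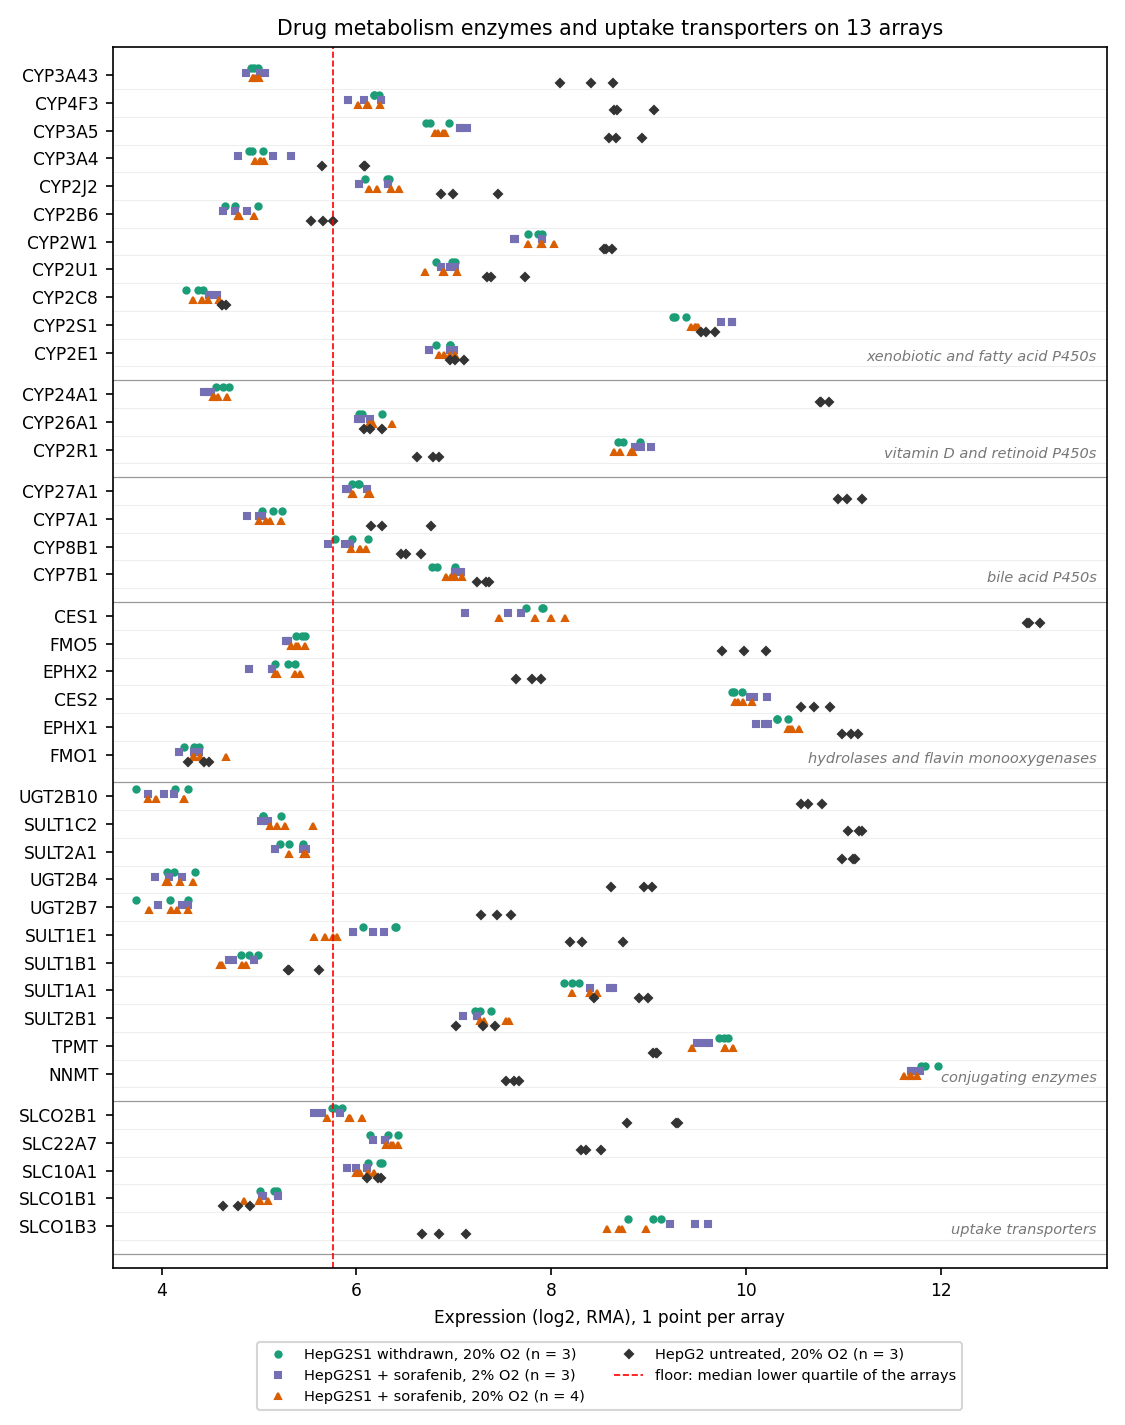
Each point is the log2 expression of a gene on 1 of 13 arrays, with a colour and a marker for each of the 4 groups, genes ordered by role, and a dashed line at the floor of 5.76. The HepG2 points stand apart from those of HepG2S1 in most of the genes, and the points of the 3 HepG2S1 groups lie close together.

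Of the 5 uptake transporters, 2 fell, 2 rose and 1 was not called. SLCO2B1 encodes an organic anion transporter of the sinusoidal membrane and other tissues. It had log2 signals of 5.70, 6.06, 5.93 and 5.93 in HepG2S1 with sorafenib at 20% O2, against 9.28, 8.77 and 9.30 in HepG2, and it fell by 3.22 ± 0.12 (SE, adjusted p = 1.34e-12). SLC22A7, the organic anion transporter OAT2, had 6.36, 6.37, 6.30 and 6.43 in HepG2S1 with sorafenib at 20% O2, against 8.31, 8.35 and 8.51 in HepG2. It stayed above the floor and fell by 2.03 ± 0.07 (SE, adjusted p = 1.03e-12) with no overlap. SLCO1B3 encodes OATP1B3, a liver transporter of bile salts and drugs that is also known from tumours outside the liver. It had 8.98, 8.57, 8.73 and 8.69 in HepG2S1 with sorafenib at 20% O2, against 7.12, 6.67 and 6.85 in HepG2. SLCO1B3 rose by 1.86 ± 0.12, or 3.63-fold (SE, adjusted p = 2.22e-09), and all HepG2S1 arrays lay above all HepG2 arrays. SLCO1B1, its paralog and the main statin transporter of liver, was near the floor in all 4 groups, with 5.09, 4.85, 5.00 and 5.01 in HepG2S1 with sorafenib at 20% O2, against 4.63, 4.79 and 4.91 in HepG2. Its arrays overlapped between the groups. The rise of 0.21 ± 0.08 (SE, adjusted p = 0.0283) was lost without HepG2 replicate 1 or 2 or HepG2S1 replicate 1, 3 or 4 (adjusted p = 0.0542 to 0.16) and with 75th percentile scaling (0.0635, with 0.00894 to 0.16 over all alternatives). SLC10A1, the sodium-dependent bile salt transporter NTCP, averaged 6.08 in HepG2S1 with sorafenib at 20% O2 and 6.19 in HepG2 and was not called (adjusted p = 0.169).

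Promoters are printed for 3 genes because they set a pair of paralogous transporter genes, SLCO1B3, which rose, and SLCO1B1, near the floor in all groups, beside FMO5, which fell. The windows are RefSeq sequence of GRCh38.p14, 250 bases before to 50 bases after the annotated start, read on the strand of the gene. Capitals mark each ACGTG, the core of the hypoxia response element, or its reverse complement CACGT. The window of SLCO1B3 is chr12:20810455-20810754 on the plus strand, that of SLCO1B1 chr12:21130944-21131243 on the plus strand, and that of FMO5 chr1:147225290-147225589 on the minus strand.
SLCO1B3: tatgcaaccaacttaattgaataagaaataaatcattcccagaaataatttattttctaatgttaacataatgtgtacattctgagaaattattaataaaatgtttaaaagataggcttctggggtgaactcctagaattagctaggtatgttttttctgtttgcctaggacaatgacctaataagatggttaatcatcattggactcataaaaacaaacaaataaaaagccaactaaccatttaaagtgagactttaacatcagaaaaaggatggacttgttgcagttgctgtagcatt
SLCO1B1: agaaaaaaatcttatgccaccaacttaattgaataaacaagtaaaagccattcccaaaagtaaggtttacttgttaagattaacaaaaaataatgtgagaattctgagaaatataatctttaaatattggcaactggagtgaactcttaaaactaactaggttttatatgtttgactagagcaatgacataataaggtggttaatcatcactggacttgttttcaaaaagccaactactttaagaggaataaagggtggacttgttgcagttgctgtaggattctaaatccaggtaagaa
FMO5: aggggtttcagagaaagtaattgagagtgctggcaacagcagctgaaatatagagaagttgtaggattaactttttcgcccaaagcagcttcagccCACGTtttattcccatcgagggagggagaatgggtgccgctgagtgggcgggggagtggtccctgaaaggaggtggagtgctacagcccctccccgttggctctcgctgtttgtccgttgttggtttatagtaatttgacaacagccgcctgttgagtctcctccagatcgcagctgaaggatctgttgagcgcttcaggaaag
The windows of SLCO1B3 and SLCO1B1 were 64.8% identical over their alignment. FMO5 held CACGT at position −154, counted from the start, and neither SLCO window held the motif. RefSeq promoters were matched for 31 of the 40 genes. CAAAGTCCA, a strong site of HNF4A, was in 2 (CYP2B6 and CYP2C8), or 6.45%, against 0.296% of the 14210 promoters of tested genes and 0.359% of all 27305. This share rests on 2 genes, and both were near the floor in all groups, HepG2 included. ACGTG was in 4 (CYP2W1, CYP26A1, FMO5 and SULT2B1), or 12.9%, against 24.0% and 21.6%. None of these 4 was called in HepG2S1 with sorafenib at 2% against 20% O2 (limma adjusted p = 0.106 to 0.389). Of all genes tested, 15.2% were called in that comparison. Both strands were searched for each motif, matches of different motifs did not overlap in these windows, and a match only says that the letters are there.

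Some of the genes lay near the floor in every group and others only in HepG2S1. CYP2B6, CYP2C8, FMO1, SULT1B1 and SLCO1B1 were the 5 genes near the floor in all 4 groups. This is 12.5% of the 40, against 12.8% of all genes tested. A further 11 were near the floor in all 3 HepG2S1 groups and above it in HepG2, namely CYP3A4, CYP3A43, CYP24A1, CYP7A1, EPHX2, FMO5, UGT2B4, UGT2B7, UGT2B10, SULT1C2 and SULT2A1. Among all genes tested, 323 showed that pattern. CYP3A4 was only just above the floor in HepG2, with a mean of 5.94 and 5.65 in replicate 1. SULT1E1 and SLCO2B1 crossed the floor between HepG2S1 groups, and 22 genes were above it in every group. Some of the 22 were little above it, and a mean above this cut does not show that a gene is expressed. Group means were 6.00 to 6.21 for SLC10A1 and 6.07 to 6.20 for CYP26A1. The median within-group SD of the 40 genes was 0.119, against 0.0937 over all genes.

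Drug withdrawal within HepG2S1 moved few of the genes. In withdrawn cells against HepG2S1 kept in sorafenib at 20% O2, SULT1E1 and NNMT rose, CYP2S1 fell, and 37 of the 40 were not called. Of all genes tested, 18.0% were called in this comparison. The median log2 fold change was −0.04 over the 40 genes and −0.02 over all genes, and no gene of the 40 reached a 2-fold change, against 0.109% of all genes with a rise and 0.0435% with a fall of that size. Arrays did not overlap for 3 of the 40 genes, against 30.2% of all genes. In this comparison 16 of the 40 had both groups near the floor, where a fall could hardly be seen. Of all 18377 genes tested, 2834 were near the floor in withdrawn cells and 2760 with sorafenib at 20% O2. The shares of the 40 and of all genes are thus not taken at like signal levels. Genes that were not called differed by −0.18 to 0.25, and the 95% confidence intervals of those differences ran as far as −0.40 and 0.51. SULT1E1 had 6.40, 6.41 and 6.07 in withdrawn cells, against 5.80, 5.57, 5.68 and 5.76 in HepG2S1 with sorafenib at 20% O2. Withdrawn arrays all lay above the others, and the rise was 0.59 ± 0.12 on the log2 scale (SE, adjusted p = 0.0034). The mean of SULT1E1 with sorafenib at 20% O2, 5.70, was near the floor, so that the size of its rise rests on background. NNMT had 11.80, 11.83 and 11.97 in withdrawn cells, against 11.68, 11.75, 11.62 and 11.69 in HepG2S1 with sorafenib at 20% O2, a rise of 0.18 ± 0.06 (SE, adjusted p = 0.0401). CYP2S1, an extrahepatic P450 that metabolises retinoic acid, had 9.38, 9.25 and 9.27 in withdrawn cells, against 9.47, 9.49, 9.44 and 9.51 in HepG2S1 with sorafenib at 20% O2, and it fell by 0.17 ± 0.05 (SE, adjusted p = 0.0391). The groups did not overlap in either gene, but both differences were small. The summed level of the squamous or basal markers was 12.39 to 12.46 on the log2 scale in withdrawn HepG2S1, against 11.98 to 12.10 with sorafenib at 20% O2. That of the fibroblast markers was 12.54 to 12.59 in withdrawn cells, against 11.93 to 12.09 with sorafenib, and that of the blood markers 11.57 to 11.79, against 12.09 to 12.22. Hepatocyte markers had 13.06 to 13.11 in withdrawn cells, against 12.99 to 13.04 with sorafenib. None of these 4 sums overlapped between the groups, and their part in the differences was not tested. A linear sum is set mostly by the genes with the highest signals. Called as higher were 3 of 5 squamous or basal markers, 2 of 8 fibroblast markers and 1 of 13 hepatocyte markers. The others on these 3 lists were not called. Of 4 blood markers, 1 fell and 3 were not called. The call of CYP2S1 was lost without any 1 of the 4 arrays with sorafenib at 20% O2 or without withdrawn replicate 2 or 3 (adjusted p = 0.0538 to 0.17, with 0.00652 to 0.17 over all alternatives). The call of NNMT was lost without replicate 1, 3 or 4 of HepG2S1 with sorafenib at 20% O2, withdrawn replicate 2 or 3, or 2% O2 replicate 1 (adjusted p = 0.0526 to 0.19), with 75th percentile scaling (0.125) and with repeated quantile normalization (0.0704, with 0.00667 to 0.19 over all alternatives). SLCO1B3 averaged 8.99 ± 0.17 in withdrawn cells (SD, n = 3) and 8.74 ± 0.17 in HepG2S1 with sorafenib at 20% O2 (SD, n = 4) and was not called (adjusted p = 0.21), but it was with array weights (adjusted p = 0.0384, with up to 0.518 over all alternatives), as was SULT1B1 (0.0234).

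**Figure D3:**
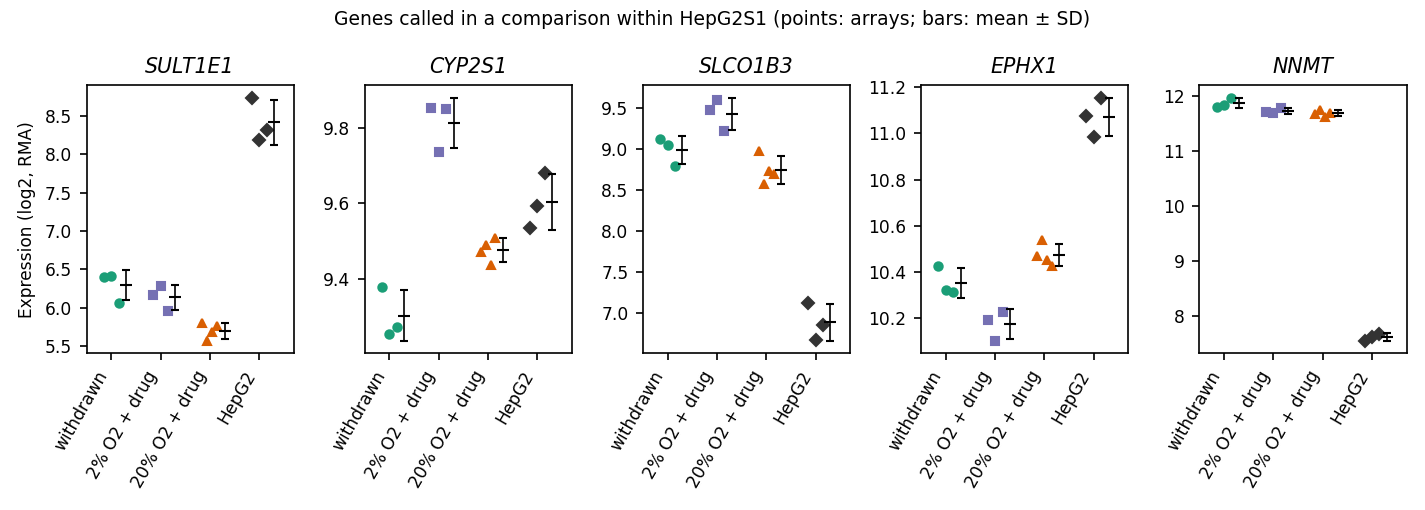
The vertical axes give log2 expression of the 5 genes called in a comparison within HepG2S1, each on its own scale that does not start at 0. Points are arrays of the 4 groups and bars are the mean ± SD. SLCO1B3 and CYP2S1 are highest at 2% O2, and EPHX1 is lowest there.

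Low oxygen under sorafenib was compared with 20% O2 under sorafenib. The transporter gene SLCO1B3, the P450 gene CYP2S1 and the sulfotransferase gene SULT1E1 rose, and the hydrolase gene EPHX1 fell. The other 36 genes were not called, where 15.2% of all genes tested were called. The median log2 fold change was −0.06 over the 40 genes and −0.03 over all genes, and none of the 40 changed 2-fold, against 0.43% of all genes with a rise and 0.00544% with a fall of that size. Arrays did not overlap for 13 of the 40 genes, against 28.2% of all genes. Both groups were near the floor for 16 of the 40. Of all 18377 genes tested, 2929 were near the floor at 2% O2 and 2760 at 20% O2, so that these shares too are not taken at like signal levels. SLCO1B3 had 9.47, 9.61 and 9.22 at 2% O2, against 8.98, 8.57, 8.73 and 8.69 at 20% O2. The 2% O2 arrays all lay higher, and SLCO1B3 rose by 0.69 ± 0.12 (SE, adjusted p = 0.0016). CYP2S1 had 9.86, 9.74 and 9.85 at 2% O2, against 9.47, 9.49, 9.44 and 9.51 at 20% O2. It rose by 0.34 ± 0.05 (SE, adjusted p = 0.00076) with no overlap. EPHX1 had 10.19, 10.10 and 10.23 at 2% O2, against 10.47, 10.54, 10.45 and 10.43 at 20% O2, and fell by 0.30 ± 0.06 (SE, adjusted p = 0.0027). SULT1E1, with a mean near the floor at 20% O2, had 6.17, 6.28 and 5.96 at 2% O2, against 5.80, 5.57, 5.68 and 5.76 at 20% O2. Its arrays did not overlap, with a rise of 0.43 ± 0.12 (SE, adjusted p = 0.0278), but the call was lost without replicate 1 or 2 at 2% O2 or replicate 2 or 3 at 20% O2 (adjusted p = 0.0613 to 0.131, with 0.0077 to 0.131 over all alternatives). CES1 had 7.12, 7.56 and 7.69 at 2% O2, against 7.46, 8.00, 7.84 and 8.14 at 20% O2, with overlapping arrays and no call (−0.41 ± 0.14, SE, adjusted p = 0.071). CES1 was called with 75th percentile scaling, with array weights, without replicate 1 at 20% O2 or without replicate 3 at 2% O2 (adjusted p = 0.0091 to 0.0477, with up to 0.313 over all alternatives). CYP3A5 had 7.13, 7.06 and 7.06 at 2% O2, against 6.81, 6.89, 6.91 and 6.84 at 20% O2. Its arrays did not overlap, and it was not called (0.22 ± 0.08, SE, adjusted p = 0.0739) except under 5 alternatives (adjusted p = 0.0205 to 0.0326, with up to 0.21 over all). Differences of genes not called lay between −0.41 and 0.22, with 95% confidence intervals as far as −0.71 and 0.41. The summed level of the fibroblast markers was 12.11 to 12.33 at 2% O2, against 11.93 to 12.09 at 20% O2, and that of the blood markers 12.25 to 12.37, against 12.09 to 12.22. Sums of the lung markers (8.28 to 8.34 at 2% O2, against 8.43 to 8.66 at 20% O2) and kidney tubule markers (8.63 to 8.68, against 8.69 to 8.83) did not overlap either, and the part of these 4 sums in the result was not tested. Single markers did not all move with their sum. Of 8 fibroblast markers, 1 rose, 1 fell and 6 were not called, and none of 4 blood markers was called. Of 3 lung markers 2 fell, and of 3 kidney tubule markers 1 fell. The comparisons of withdrawal and of 2% O2 share the same 4 arrays.

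Withdrawn HepG2S1 and HepG2 were both free of drug during the 72 h. In this comparison, 30 of the 40 genes fell and 5 rose, against 56.6% of all genes called, 27.0% as lower and 29.6% as higher. The median log2 fold change was −0.83 over the 40 genes and −0.01 over all genes. A fall of at least 2-fold was called for 17 of the 40 genes, against 7.47% of all genes, and a rise of at least 2-fold for 3, against 8.37%. Arrays did not overlap for 35 of the 40 genes, against 60.4% of all genes. CYP24A1 had 4.69, 4.63 and 4.56 in withdrawn cells, against 10.85, 10.76 and 10.77 in HepG2. CES1 had 7.90, 7.74 and 7.92 in withdrawn cells, against 13.02, 12.90 and 12.89 in HepG2. All 3 withdrawn arrays lay far below all 3 HepG2 arrays in both genes, with log2 fold changes of −6.17 for CYP24A1 and −5.08 for CES1. SULT1E1 averaged 6.29 ± 0.20 in withdrawn cells and 8.41 ± 0.29 in HepG2 (SD, n = 3 each), and it fell by 2.12 on the log2 scale. NNMT averaged 11.87 ± 0.09 in withdrawn cells and 7.61 ± 0.07 in HepG2 (SD, n = 3 each) and rose by 4.26, and SLCO1B3 rose by 2.11. CYP2S1 fell by 0.30 (adjusted p = 0.00035). This comparison shares its HepG2 arrays with that of HepG2S1 under sorafenib at 20% O2.

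Genes around these enzymes were read from 5 further lists. Where 57.3% of all genes were called in HepG2S1 with sorafenib at 20% O2 against HepG2, 27.2% as lower and 30.1% as higher, 4 of 5 redox partners fell and 1 rose. POR, the reductase that passes electrons to microsomal P450s, averaged 10.34 in HepG2S1 with sorafenib at 20% O2 and 11.59 in HepG2, and it fell by 1.25 ± 0.06 (SE, adjusted p = 5.14e-11). FDX1, the ferredoxin of mitochondrial P450s, rose by 0.21. Of 16 nuclear receptors and liver transcription factors, 11 fell, 3 rose and 2 were not called (87.5% called), with a median of −0.87. PROX1, a homeobox factor of hepatocytes, fell by 4.47, NR0B2, the bile acid feedback repressor SHP, fell by 3.45, and FOXA1 fell by 2.32. The glucocorticoid receptor gene NR3C1 rose by 0.44, CEBPB rose by 0.24, and NR1I3, the receptor CAR, fell by 0.34. NR1I2 and HNF4A are not analysed here.

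Among other phase I enzymes, 22 of 41 fell, 6 rose and 13 were not called, with a median of −0.19, so that 68.3% were called, against 57.3% of all genes. ADH6, an alcohol dehydrogenase, fell by 6.13, and DPYD, which degrades fluoropyrimidines, rose by 1.71. Among 19 other phase II enzymes and cofactor genes, 9 fell, 3 rose and 7 were not called, with a median of −0.03, and the share called, 63.2%, was near that of all genes. Of these 19, 7 were near the floor in all 4 groups (36.8%), against 12.8% of all genes, and they enter the median and the share. UGT2A3 fell by 5.90. PAPSS2, which makes the sulfate donor of the sulfotransferases, averaged 12.31 in HepG2S1 with sorafenib at 20% O2 and 6.81 in HepG2 and rose by 5.50 ± 0.06 (SE, adjusted p = 7.22e-19). Of 21 other uptake transporters, 8 fell, 5 rose and 8 were not called, with a median of −0.08, and the share called, 61.9%, was also near that of all genes. SLCO4C1 fell by 5.77, and SLCO3A1 rose by 3.20.

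Within HepG2S1, fewer genes were called in these lists and over all genes. Of the 19 phase II genes, 11 were near the floor in every HepG2S1 group. At withdrawal, none of 5 redox partners, 2 of 16 regulators (12.5%), 7 of 41 phase I enzymes (17.1%), 2 of 19 phase II genes (10.5%) and 4 of 21 transporters (19.0%) were called, against 18.0% of all genes. PPARA fell by 0.56 (adjusted p = 2.78e-06), NR3C1 rose by 0.30, and the monoamine oxidase gene MAOA rose by 0.59. SLC10A5, a relative of NTCP, rose by 0.88 and the carnitine and ergothioneine carrier SLC22A4 rose by 0.80. At 2% O2, none of the redox partners, 4 regulators (25.0%), 4 phase I enzymes (9.76%), 2 phase II genes (10.5%) and 4 transporters (19.0%) were called, against 15.2% of all genes. The aldehyde oxidase gene AOX1 rose by 0.76 (adjusted p = 5.53e-06), UGP2, which makes the precursor of the glucuronosyl donor, rose by 0.61, and VDR fell by 0.39 (adjusted p = 0.00231).

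**Figure D4:**
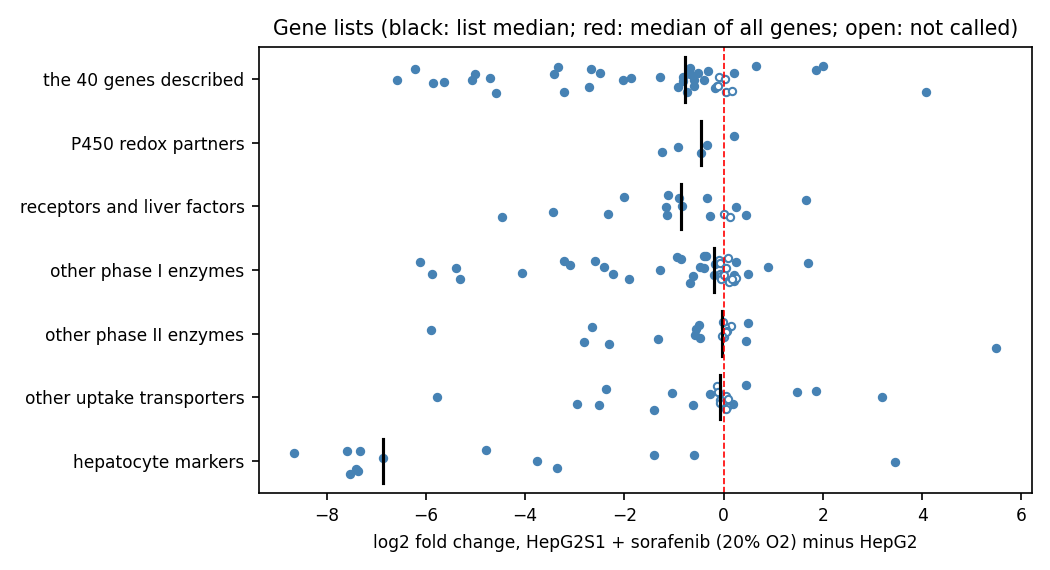
The horizontal axis gives the log2 fold change for HepG2S1 with sorafenib at 20% O2 minus HepG2, with 1 point per gene in 7 lists. Black bars are list medians, the dashed line is the median of all genes at 0.01, and open points were not called. The hepatocyte markers have the lowest median, −6.87, and the 40 genes described have −0.78.

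Markers of other cell types were read beside these results. Of 5 squamous or basal epithelial markers, 3 rose in HepG2S1 with sorafenib at 20% O2 against HepG2, led by SERPINB5 (6.80). The log2 of their summed linear level was 12.39 to 12.46 in withdrawn HepG2S1, 12.06 to 12.14 at 2% O2, 11.98 to 12.10 in HepG2S1 with sorafenib at 20% O2 and 8.87 to 9.05 in HepG2. Of 8 fibroblast markers, 3 rose (FAP, LUM and DCN) and 5 were not called, with summed levels of 12.54 to 12.59 in withdrawn HepG2S1, 12.11 to 12.33 at 2% O2, 11.93 to 12.09 in HepG2S1 with sorafenib at 20% O2 and 9.93 to 10.14 in HepG2. Of 4 intestinal markers, 2 fell, with summed levels of 8.24 to 8.38 in HepG2S1 with sorafenib at 20% O2 and 10.75 to 10.99 in HepG2. Of 4 blood markers 1 rose and 1 fell, of 3 endothelial markers 2 fell, of 3 kidney tubule markers 1 rose and 1 fell, and of 3 lung markers none was called. PTPRC, which marks blood cells, was near the floor in every group, and the summed level of the blood markers was 11.57 to 11.79 in withdrawn HepG2S1, 12.25 to 12.37 at 2% O2, 12.09 to 12.22 in HepG2S1 with sorafenib at 20% O2 and 11.44 to 11.52 in HepG2. The part of these markers in the results on drug metabolism genes was not tested.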

How the data were processed

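RNA of 13 flasks was measured on 1 Affymetrix HuGene array each, and flasks were grouped by line, drug and oxygen per the labels. The authors deposited a table of log2 values from RMA (background correction, quantile normalization and summary of probes), per the submitters' processing notes. Its version is not given in the sources used here, and the log2 scale was read from values of 2.68 to 14.5. No detection call, scan date or batch was given, and the number of arrays limits the precision.

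Of 28926 rows, 19310 carried 1 symbol of the platform annotation, 1752 several and 7864 none. Symbols of 19279 rows were updated by Entrez ID with a RefSeq gene table. Of several rows of a gene (685 genes), the one with the highest mean was used, which left 18377 genes. None of the 40 genes described had several rows.

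One limma model (3.58.1, R 4.3.3; lmFit, eBayes) covered the 4 groups, with Benjamini-Hochberg adjustment over all genes of a comparison and calls at an adjusted p under 0.05. Fold changes set the group named first over the other. The labels speak of flasks and do not say if these were separate cultures, and p-values measure only the spread between them. The fit was tested on simulated data. Genes of the 40 are given with values if called and changed 2-fold in the first comparison or called within HepG2S1; further genes are up to 3 rises and 3 falls per list, plus POR, NR1I2, NR1I3, HNF4A and VDR and a further gene not reported here. A few others of the 40 were added for their role. The genes, lists (redox partners, regulators, other phase I, phase II and uptake genes, and markers of hepatocytes, squamous epithelium, fibroblasts, blood, endothelium, intestine, kidney tubule and lung) and motifs were chosen with earlier results of these data known.

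Alternatives left out each array in turn, kept only the compared groups, dropped genes with a mean below the 33rd percentile, shifted arrays to 1 common 75th percentile, repeated the quantile normalization, weighted the arrays, averaged rows of a gene, moderated with trend and robust options, or set the adjusted p under 0.01. After the data were seen, a model of HepG2S1 arrays alone was added. Promoters are RefSeq windows of 300 bases, aligned with Biopython 1.88.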

Additional observations from a re-analysis of the deposited data

Results flagged for a closer look

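Of the 40 genes, 2 had an array far from the other 3 in HepG2S1 with sorafenib at 20% O2, the group of 4 arrays, measured as the gap to the nearest array over the range of the group. Chance marks about 1 in 20 groups in this way. CYP2B6 had 4.95 in replicate 2, against 4.78 to 4.80 in the others (gap over range 0.925), near the floor on all 4. SULT2A1 had 5.31 in replicate 3, against 5.46 to 5.48 in the others (gap over range 0.855). The deviations were small beside the distance of SULT2A1 from HepG2, where its mean was 11.07.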

How the results depend on the processing

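For HepG2S1 with sorafenib at 20% O2 against HepG2, 32 of the 34 calls among the 40 genes held under every alternative run at an adjusted p under 0.05; CYP2C8 and SLCO1B1 lost theirs and CYP2S1 and SULT2B1 gained one in some. All 35 calls of withdrawn HepG2S1 against HepG2 held. No direction of a called value reversed. The filter at the 33rd percentile left only 15 of the 40 genes, of which 14 were called in each of these comparisons (4 higher, 10 lower), with medians of −0.41 with sorafenib and −0.54 withdrawn. Leaving out 1 array gave medians of −0.84 to −0.68 with sorafenib, the last without HepG2 replicate 3, and −0.90 to −0.74 withdrawn, the last without the same array.

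For withdrawal, array weights gave 5231 calls over all genes and 5 among the 40, and an adjusted p under 0.01 gave 1970 and 1, against 3303 and 3. Leaving out 1 array gave 1 to 3 calls among the 40 (1 without replicate 1, 3 or 4 with sorafenib at 20% O2 or withdrawn replicate 2 or 3), 2252 to 3641 over all genes, and medians of −0.052 to 0.0095. For 2% O2, array weights gave 4568 calls over all genes and 8 among the 40, and an adjusted p under 0.01 gave 1298 over all genes, against 2786 and 4. Leaving out 1 array gave 1598 to 3168 calls over all genes (1722 without 2% O2 replicate 1 and 1598 without replicate 2) and 3 to 6 among the 40, with medians of −0.081 to −0.014, the last without 2% O2 replicate 1, and the filter gave a median of 0.037. Repeated quantile normalization gave 0.0013 and 75th percentile scaling −0.12, against −0.063. CES1, CYP2W1, CYP3A5, EPHX2, SULT1C2 and TPMT gained a call at 2% O2 under some alternatives, and SLCO1B3 and SULT1B1 at withdrawal with array weights. Of the calls at 2% O2, 59.3% were higher, and 32.0% with 75th percentile scaling, 71.3% at an adjusted p under 0.01 and 51.2% with array weights. Where a value moved without a filter or fewer arrays, the cause was not tested. SULT1E1 at withdrawal and SLCO1B3, CYP2S1 and EPHX1 at 2% O2 kept their calls under every alternative run at an adjusted p under 0.05. Genes near the floor have folds that rest on background. No paired analysis was possible because replicate numbers were given in accession order.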

Other observations

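CYP3A7, CYP2D6 and UGT2B11 were only on rows shared with other genes, whose values belong to no single gene. The row of CYP3A7, the fetal CYP3A enzyme, and its read-through gene CYP3A7-CYP3A51P averaged 5.47 ± 0.13 in withdrawn HepG2S1, 5.85 ± 0.08 at 2% O2, 5.31 ± 0.15 in HepG2S1 with sorafenib at 20% O2 and 9.52 ± 0.10 in HepG2 (log2, SD, n = 3, 3, 4 and 3). The row of CYP2D6, which oxidises many psychiatric drugs, and LOC101929829 averaged 7.87 ± 0.16 in withdrawn HepG2S1, 7.65 ± 0.30 at 2% O2, 8.02 ± 0.21 in HepG2S1 with sorafenib at 20% O2 and 8.00 ± 0.34 in HepG2. The CYP3A7 row was thus far lower in every HepG2S1 group, and the CYP2D6 row differed little beside its SDs. A row of 5 UGT2B genes, UGT2B11, UGT2B17, UGT2B15, UGT2B10 and UGT2B7, averaged 5.98 ± 0.27 in withdrawn HepG2S1, 5.81 ± 0.14 at 2% O2, 5.98 ± 0.35 in HepG2S1 with sorafenib at 20% O2 and 11.93 ± 0.22 in HepG2. These rows entered no test.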
